A study of Caenorhabditis elegans with 2 samples.

Results

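The insulin, AMPK and starvation response genes described here are the 10 protein-coding genes daf-2, age-1, daf-18, akt-1, akt-2, daf-16, daf-15, aak-1, aak-2 and hlh-30, out of 19973 protein-coding genes on the 6 nuclear chromosomes of *Caenorhabditis elegans*. They were taken by name, with earlier results of these data known, so their counts below are no independent check. A peak was counted for a gene when its summit lay in the gene body or within 3000 bp of it. Sites occupied by tagged CEH-8, a homeodomain protein known from the RIA interneurons, had been mapped by ChIP-seq: fragments bound by the tagged protein are pulled down with an antibody to GFP and sequenced. Both samples belong to 1 group and are 2 biological replicates of whole, mixed-sex L1 larvae of strain OP760, aged 6 hours and starved after bleaching. The strain carries the mutation unc-119(tm4063) and the stably expressed transgene wgIs760, in which ceh-8 is fused to TY1, EGFP and 3xFLAG at its C-terminal end and unc-119(+) is the rescue marker. All larvae were starved, so the data hold no fed larvae to compare with, and no peak list from an untagged strain was used here. In whole larvae the cell type in which a site was bound cannot be told.

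The lists compared were 30000 peaks from each replicate, 30000 from both replicates together (the pooled list) and 1891 optimal IDR peaks, which the authors derived from the other 3 by the irreproducible discovery rate, a measure of how well the ranks of replicate peaks match. Each peak has a signal value set by the authors, on a scale that no source used here gives, and rank 1 is the strongest peak of a list. Read depth is unknown, signals are compared only within a list, and with a single group there is nothing to test between conditions, so all counts below are descriptions.

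In the worm, insulin-like peptides act on the receptor DAF-2, which signals through the lipid kinase AGE-1 to the kinases AKT-1 and AKT-2. These keep the FOXO transcription factor DAF-16 out of the nucleus, and the phosphatase DAF-18 opposes AGE-1. When food is absent, DAF-16 enters the nucleus and is needed for larvae to survive L1 arrest, the AMP-activated kinase (AMPK, catalytic subunits AAK-1 and AAK-2) restrains growth, the TOR complex with its subunit DAF-15 is less active, and HLH-30 drives autophagy and lysosome genes.

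Of the 10 genes, 6 had at least 1 IDR summit in their window, against 15.9% of all protein-coding genes (3178 of 19973). They were daf-16, aak-2, akt-1, daf-18, hlh-30 and daf-2, with 11 IDR peaks in all, and akt-2, age-1, daf-15 and aak-1 had 0. Of the 11 summits 7 lay in introns and 4 upstream of the gene, and 0 lay in a coding exon or UTR of these genes. In 4 genes (daf-16, aak-2, akt-1 and hlh-30) an IDR peak was strong in both replicates, meaning that each replicate had a summit among its 1891 strongest peaks within 200 bp, as was the case for 10.1% of all genes. These genes are long, with a median of 7519 bp against 2027 bp for all protein-coding genes. A longer window holds more summits, and the share of genes with an IDR summit was 28.3% among the 998 genes of 10000 bp or more and 15.3% among shorter ones. All 3 long members, daf-2, daf-16 and hlh-30, had an IDR summit, and so did 3 of the 7 shorter ones.

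The sequences below are those under 7 of the peaks on which the results turn. Each of them holds a motif searched for, or is rich in G and C and lacked a replicate 2 peak. Not every such peak is shown, as the second aak-2 peak and the daf-16 peaks hold motifs too. Each runs 50 bases to either side of an IDR summit, 5′ to 3′ on the strand of the named gene, and was read from the WBcel235 reference (the same assembly as ce11, RefSeq). Capitals mark any of 6 motifs on either strand. TAATTA and TAATTG are homeodomain sites, TGTTTAC is a DAF-16 site and TGATAAG alone is the DAF-16-associated element. CACGTG is an E-box bound by HLH-30 and other helix-loop-helix proteins, and the last motif is GAGAGA. None of these 7 windows touches an annotated UTR.
aak-2, stronger intronic peak, chrX:16796893-16796993, plus strand: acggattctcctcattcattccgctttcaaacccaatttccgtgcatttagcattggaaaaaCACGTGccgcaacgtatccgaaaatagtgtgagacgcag
akt-1, near upstream peak, chrV:10248045-10248145, plus strand: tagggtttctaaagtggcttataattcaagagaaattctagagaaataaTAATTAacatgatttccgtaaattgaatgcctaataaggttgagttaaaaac
akt-1, far upstream peak, chrV:10246560-10246660, plus strand: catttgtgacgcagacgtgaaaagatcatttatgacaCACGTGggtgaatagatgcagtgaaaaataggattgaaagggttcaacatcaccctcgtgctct
hlh-30, far intronic peak, chrIV:4020166-4020266, minus strand: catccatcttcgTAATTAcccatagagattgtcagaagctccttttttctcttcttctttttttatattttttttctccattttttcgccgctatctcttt
hlh-30, upstream peak, chrIV:4034982-4035082, minus strand: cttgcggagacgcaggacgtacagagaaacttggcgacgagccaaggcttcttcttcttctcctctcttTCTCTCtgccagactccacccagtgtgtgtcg
hlh-30, near intronic peak, chrIV:4028398-4028498, minus strand: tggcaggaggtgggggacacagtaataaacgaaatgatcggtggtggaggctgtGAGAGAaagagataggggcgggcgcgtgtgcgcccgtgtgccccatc
daf-18, upstream peak, chrIV:426790-426890, minus strand: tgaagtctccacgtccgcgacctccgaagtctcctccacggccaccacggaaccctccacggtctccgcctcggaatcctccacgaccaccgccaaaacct

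The insulin receptor gene daf-2 (WBGene00000898, chrIII:2994514-3040846, minus strand) had 1 IDR peak, 18992 bp past the gene start in an intron (chrIII:3021679-3022028, signal 97.8, rank 1578). The nearest annotated start of a daf-2 transcript, Y55D5A.5d, lay 1243 bp before the summit. This site was stronger in replicate 2, where the peak ranked 869 with signal 65.2, than in replicate 1, where it ranked 3960 with signal 36.9; as signals differ in range between lists, ranks are the measure compared. The strongest replicate 1 peak of daf-2 was another intronic one, 3336 bp from the start, with rank 2808 (signal 41.8). A second intronic peak, 4771 bp inside the gene, ranked 991 in replicate 2 and had no replicate 1 peak within 200 bp. In the pooled list this site ranked 3557 (signal 67.0), below the IDR list.

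The lipid kinase gene age-1 (WBGene00000090, chrII:11519328-11527054, minus strand) had 0 IDR peaks. Its strongest pooled peak lay in a coding exon 151 bp inside the gene start and ranked 4516 (signal 62.1). The 2 replicates placed their strongest age-1 peak at different ends of the gene. In replicate 1 it was a coding-exon peak 5919 bp from the start with rank 4018, and in replicate 2 the peak 141 bp from the start with rank 12107.

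At daf-18 (WBGene00000913, chrIV:420011-425177, minus strand) the IDR peak lay 1663 bp upstream of the gene start (chrIV:426665-427014, signal 128, rank 946). Its summit fell inside a coding exon of the neighbouring gene garr-1, whose start was 672 bp away. It ranked 229 in replicate 1 with signal 138, and replicate 2 had no peak within 200 bp of it at any rank. The strongest replicate 2 peak in the daf-18 window ranked 6611 and lay on the other side of the gene, 7618 bp downstream of its start. A second replicate 1 peak upstream of daf-18, 1028 bp before the start (rank 512), also had no replicate 2 peak. Among the replicates, both upstream sites were found in replicate 1 alone.

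The 2 AKT kinase genes differed in the IDR list. At akt-1 (WBGene00000102, chrV:10248905-10252845, plus strand) 2 IDR peaks lay upstream, with no other protein-coding gene within 3000 bp of either. The near one was 810 bp from the start (chrV:10247920-10248269, signal 139, rank 798), with rank 1607 (signal 54.6) in replicate 1 and rank 525 (signal 82.5) in replicate 2. The far one was 2295 bp from the start (chrV:10246435-10246784, signal 105, rank 1380), with rank 1285 (signal 61.8) in replicate 1 and rank 2112 (signal 43.7) in replicate 2. At akt-2 (WBGene00000103, chrX:14147700-14152070, plus strand) the strongest pooled peak also lay upstream, 757 bp from the start (chrX:14146768-14147117), but at signal 82.4 and rank 2159 it was just below the IDR list, whose lowest signal was 88.0. It ranked 1800 (signal 51.7) in replicate 1 and 6932 (signal 30.7) in replicate 2, whose strongest akt-2 peak was intronic at rank 4281. Nearest above that limit among the 11 peaks was the second aak-2 peak, with signal 89.0 and rank 1849.

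The FOXO gene daf-16 (WBGene00000912, chrI:10750498-10776703, plus strand) had the strongest peak of the 10 genes, at rank 414 with signal 185 (chrI:10752561-10752910). Its summit was intronic, 2238 bp past the gene start. The second daf-16 IDR peak was also intronic, 9779 bp past the start (chrI:10760102-10760451, signal 114, rank 1194), 2826 bp before the start of the shorter transcript R13H8.1b. Both were strong in both replicates. The first ranked 601 (signal 89.2) in replicate 1 and 427 (signal 90.2) in replicate 2, with the summits at most 4 bp from that of the IDR peak. The second ranked 1520 (signal 56.2) in replicate 1 and 1078 (signal 58.8) in replicate 2. Another strong daf-16 peak of replicate 1, 15220 bp inside the gene (rank 1342), had a replicate 2 partner only at rank 18202. In the pooled list this site ranked 2749 (signal 74.1), below the IDR list.

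The gene for the TOR complex subunit raptor, daf-15 (WBGene00000911, chrIV:9386208-9394979, plus strand), had 0 IDR peaks. Its strongest pooled peak ranked 7950 (signal 52.5) and lay 2486 bp upstream. In replicate 1 the strongest peak ranked 9468, and in replicate 2 an intronic peak ranked 3184.

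The 2 catalytic AMPK subunit genes stood near opposite ends of the order. The gene aak-2 (WBGene00020142, chrX:16796087-16803398, plus strand) had 2 IDR peaks in introns. The first lay 856 bp inside the gene (chrX:16796768-16797117, signal 184, rank 417) and ranked 294 (signal 125) in replicate 1 and 778 (signal 68.9) in replicate 2. The second lay 3178 bp inside (chrX:16799090-16799439, signal 89.0, rank 1849), 442 bp before the start of the shorter transcript T01C8.1c, and ranked 2206 (signal 46.8) in replicate 1 and 1428 (signal 51.7) in replicate 2. By contrast, aak-1 (WBGene00019801, chrIII:8756990-8761090, minus strand) had 1 pooled peak in its window, at rank 29901 of 30000. It had 1 peak in each replicate, at rank 13346 in replicate 1 and 19195 in replicate 2, and neither lay within 200 bp of the pooled summit.

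The gene hlh-30 (WBGene00020930, chrIV:4014793-4034951, minus strand), which encodes the worm homologue of the autophagy regulator TFEB, had 3 IDR peaks, the most of the 10 genes. As many or more were found at 54 of all 19973 genes, and 2.26% of all genes had at least 2, as did 4 of the 10 genes here. The 3 peaks had nearly equal signals. One lay 81 bp upstream of the gene start (chrIV:4034857-4035206, signal 106, rank 1361) and was strong in both replicates, at rank 1236 (signal 62.7) in replicate 1 and 1415 (signal 51.8) in replicate 2. One lay in an intron 6503 bp inside (chrIV:4028273-4028622, signal 113, rank 1210), 321 bp before the start of the transcript W02C12.3b, and ranked 405 (signal 107) in replicate 1 with no replicate 2 peak within 200 bp. The last lay in an intron 14735 bp inside (chrIV:4020041-4020390, signal 112, rank 1217) and ranked 2860 (signal 41.5) in replicate 1 and 763 (signal 69.5) in replicate 2.

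**Figure D1:**
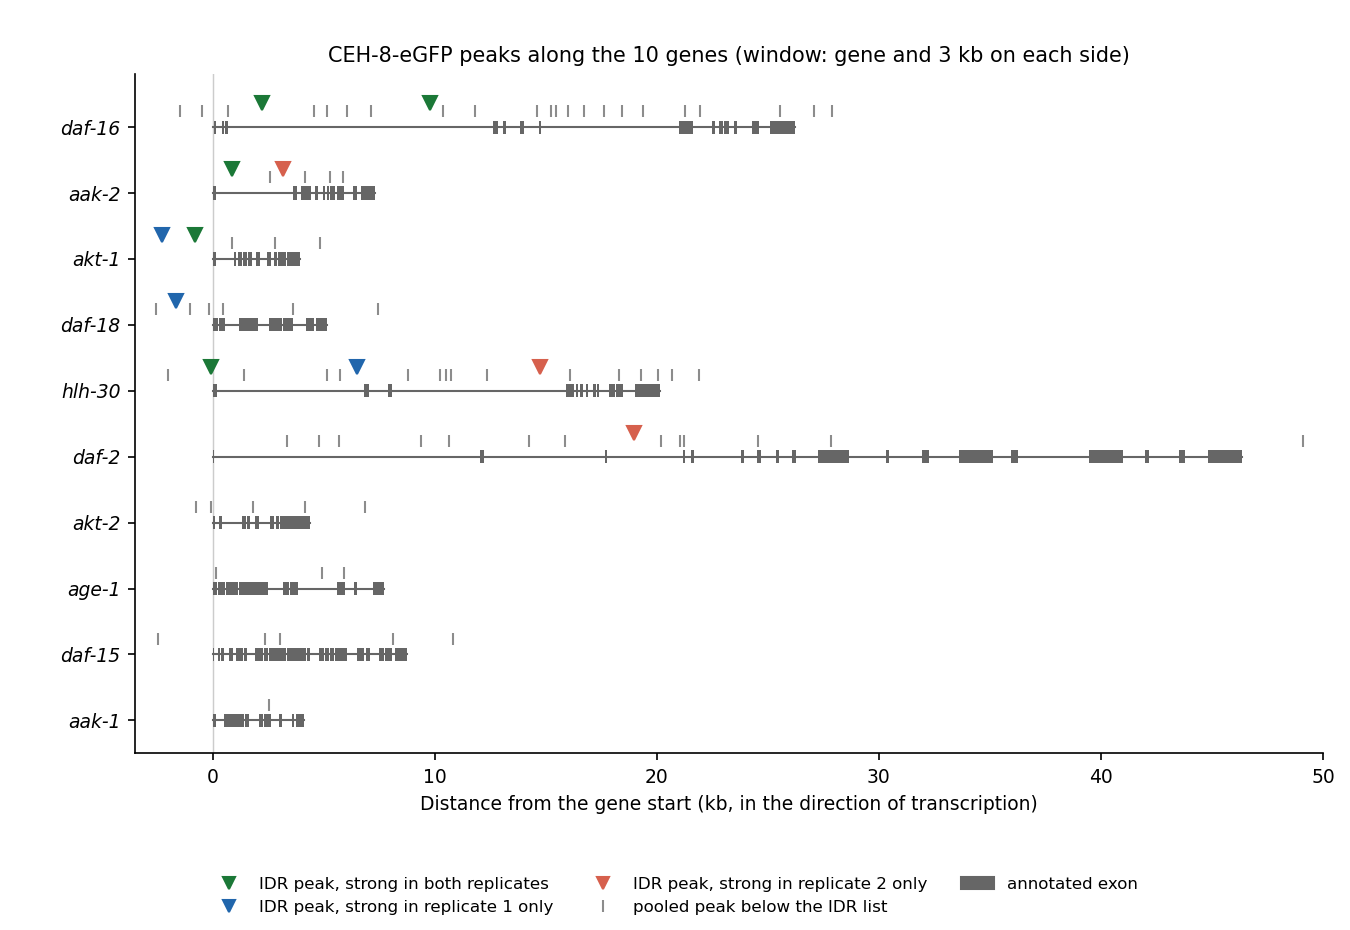
Peaks along the 10 genes, drawn from the gene start (0 kb) in the direction of transcription. Triangles are IDR peaks, coloured by the replicates in which they were among the 1891 strongest; grey ticks are pooled peaks below the IDR list, and grey boxes are exons. Of the 11 IDR peaks 7 lie in introns, and akt-2, age-1, daf-15 and aak-1 have none.

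The order of the genes depended on the list, as the plot of the strongest peak by list shows. In the pooled list it ran from daf-16 (rank 414) and aak-2 (417), which are neighbours with nearly equal signals of 185 and 184, through akt-1, daf-18, hlh-30, daf-2 and akt-2 to age-1, daf-15 and aak-1. In replicate 1 the first place went to daf-18 (rank 229), followed by aak-2 (294), hlh-30 (405) and daf-16 (601). In replicate 2 daf-16 (427) and akt-1 (525) led, followed by hlh-30 (763), aak-2 (778) and daf-2 (869), and daf-18 was eighth (6611). The genes akt-2, age-1, daf-15 and aak-1 ranked below 1891 in both replicates, except akt-2 in replicate 1 (1800). Taken from one replicate alone, 6 of the 10 genes had one of the 1891 strongest peaks of replicate 1 (15.6% of all genes) and 5 of 10 one of replicate 2 (15.4% of all genes). The genes counted in both replicates were aak-2, akt-1, daf-16 and hlh-30. By best IDR signal daf-16 was in place 878 of the 3178 genes with a peak, aak-2 in place 881 and daf-2 in place 2758, and 3 of the 11 peaks were in the stronger 945 of the IDR list.

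**Figure D2:**
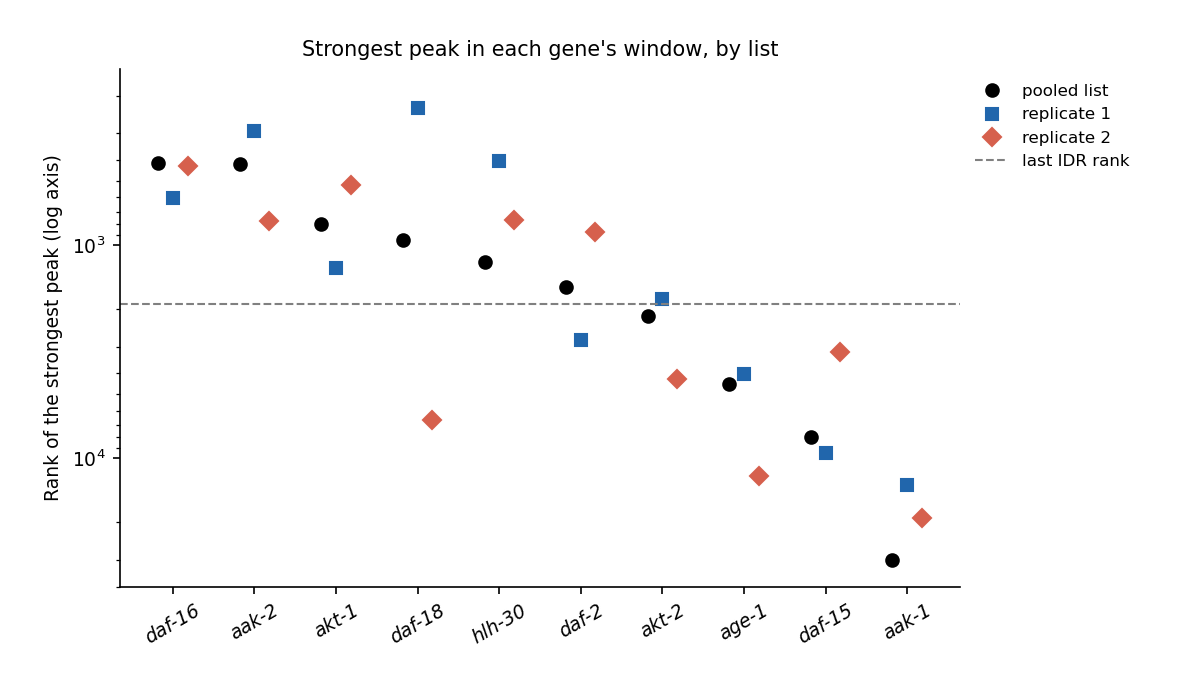
Rank of the strongest peak in each gene's window in the pooled list and in each replicate (log axis, stronger peaks higher, 1 point per list); the dashed line is rank 1891, the last of the IDR list. The points of daf-16, aak-2 and akt-1 lie close together and above the line, while those of daf-18 lie at 229 in replicate 1 and 6611 in replicate 2.

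Support by the replicates was uneven among the 11 peaks. Of these, 5 were strong in both replicates (2 at daf-16 and 1 each at aak-2, akt-1 and hlh-30), 3 in replicate 1 only (akt-1, daf-18, hlh-30) and 3 in replicate 2 only (aak-2, daf-2, hlh-30). In the IDR list as a whole 58.0% of peaks (1097 of 1891) were strong in both. A further 21.4% were strong in replicate 1 only and 18.2% in replicate 2 only, so uneven support was common in the list. For 9 of the 11 both replicates had a peak within 200 bp at some rank, and the 2 without a replicate 2 peak were those at daf-18 and in the near hlh-30 intron. The share of all IDR peaks with a peak in both replicates at any rank is not given here. Each of the 11 had the same rank in the IDR list as in the pooled list, these 2 included. The 3 peaks of hlh-30 fell in 3 different classes of support.

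**Figure D3:**
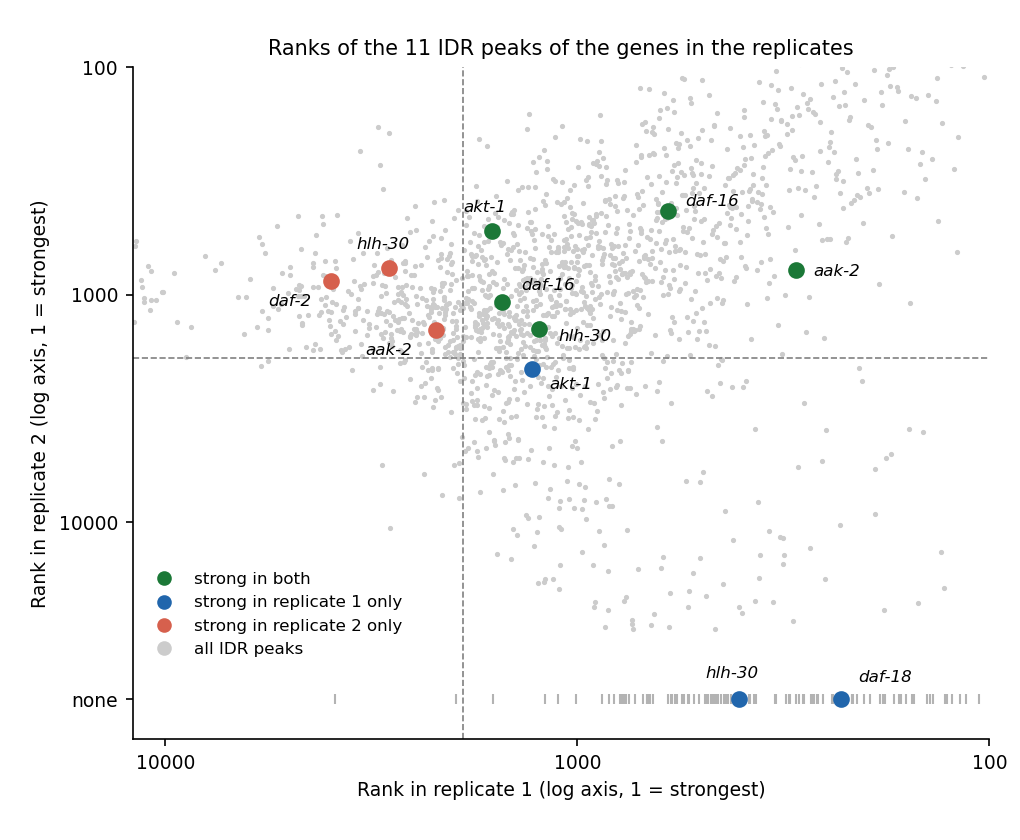
Rank in replicate 1 against rank in replicate 2 (log axes, stronger to the right and upward) of the 11 IDR peaks, coloured by support, over the IDR peaks of the whole list in grey; ranks stronger than 100 are outside the plot, dashed lines mark rank 1891, and peaks with no replicate 2 peak within 200 bp are drawn at "none". The daf-18 peak and 1 hlh-30 peak lie at "none", at replicate 1 ranks of 229 and 405.

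Base composition moved with this support over the whole IDR list, and among the 11 peaks in part. Within 50 bp of the summit 64.4% of bases were G or C at the daf-18 peak and 60.4% at the near hlh-30 intronic peak, the 2 that replicate 2 lacked. Both windows are among the sequences printed above. The other peak strong in replicate 1 only, the far akt-1 peak, had 42.6%, the same as the aak-2 peak strong in replicate 2 only. The 3 peaks that were strong in replicate 2 only had 31.7% (daf-2), 32.7% (far hlh-30 intron) and 42.6% (aak-2), and the 5 strong in both had 27.7% (akt-1) to 55.4% (hlh-30 upstream). The strong replicate 1 peak of daf-16 outside the IDR list, with rank 18202 in replicate 2, had 61.4%. Over the whole list, peaks strong in replicate 1 only had a median of 56.4% G or C (404 peaks), those strong in both 45.5% and those strong in replicate 2 only 42.6% (344 peaks). With 60% or more, a limit set after the values were seen, 159 of 223 IDR peaks (71.3%) were strong in replicate 1 only, against 14.7% of the other 1668. The part of base composition in the presence or absence of these peaks was not tested.

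**Figure D4:**
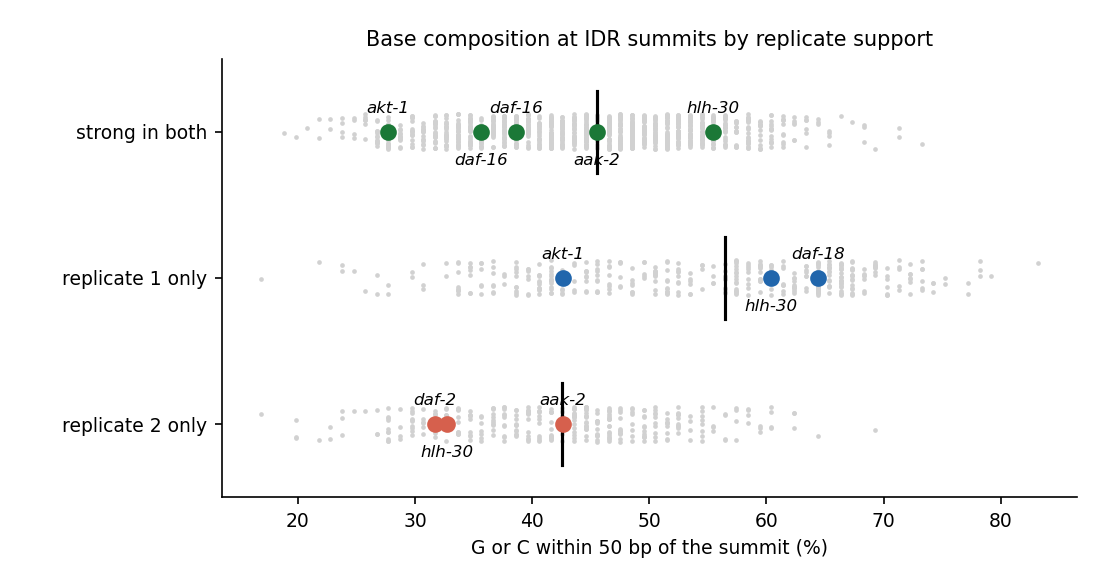
Share of G and C within 50 bp of the summit for the IDR peaks of the 10 genes (coloured, labelled by gene) and of the whole list (grey; black bars are medians of 45.5%, 56.4% and 42.6%), by replicate support; peaks strong in neither replicate are not drawn. The daf-18 and hlh-30 peaks of replicate 1 only lie at 64.4% and 60.4%, and the daf-2 and hlh-30 peaks of replicate 2 only at 31.7% and 32.7%; the akt-1 peak of replicate 1 only and the aak-2 peak of replicate 2 only both lie at 42.6%.

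Most of the summits lay inside the genes. Counting the gene body alone, 4 of the 10 genes had an IDR summit (daf-2, daf-16, aak-2 and hlh-30) against 2.87% of all genes. Among genes of 10000 bp or more the share was 15.5%, and 3 of 3 long members had one, and among shorter genes it was 2.20%, against 1 of 7 members (aak-2). In the whole IDR list, summits outside genes included, 23.2% lay in introns alone, against 7 of the 11 here. These 2 shares are not matched for gene length, and the genes here are longer than most. Introns of these genes hold the starts of shorter transcripts, and 3 of the 11 summits lay within 500 bp of an annotated transcript start of a protein-coding gene (43.6% of all IDR summits) and 6 within 1000 bp (58.3%). For 9 of the 11 peaks the member was also the gene with the nearest start. The exceptions were the daf-18 peak and the far hlh-30 intronic peak, whose nearest start was that of W02C12.2, 12243 bp away. A non-coding RNA gene lay over 0 of the 11 summits.

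Peaks were denser around these genes than around protein-coding genes at large. Their windows covered 194089 bp and held 5.67 IDR summits per 100 kb, against 1.91 in the windows of all protein-coding genes. The value was 0 at akt-2, age-1, daf-15 and aak-1 and 1.91 at daf-2. In the pooled list of any rank, where all 10 genes and 88.4% of all genes had a peak, the density was 45.3 per 100 kb against 30.5. It was 45.9 against 30.5 in replicate 1 and 42.2 against 30.4 in replicate 2. Among the genes, daf-16 had the most pooled peaks per length with 24 peaks (74.5 per 100 kb), followed by hlh-30 with 18 (68.8) and daf-18 with 7 (62.7). Below the 30.5 of all genes were the largest gene, daf-2, with 14 pooled peaks (26.8 per 100 kb), age-1 (21.9) and aak-1 (9.90). Of the 88 pooled peaks 39 had a peak in each replicate within 200 bp, among them 14 of the 24 at daf-16 and 3 of the 14 at daf-2. The share over the whole pooled list is not given here, so whether these counts are usual cannot be told.

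Motifs were counted within 50 bp of each summit. TAATTA lay at 3 of the 11 peaks (near akt-1, far hlh-30 intron and the second daf-16 peak), against 6.93% of all IDR peaks, and TAATTG at 2, both at daf-16, against 11.6%. These 2 motifs share their first 5 letters and can overlap, and the second daf-16 peak held both. CACGTG lay at 2 peaks, the first aak-2 peak and the far akt-1 peak, against 3.65% of all IDR peaks. GAGAGA lay at 3, 2 of them at hlh-30 and 1 at aak-2 (21.6% of all IDR peaks). TGTTTAC and TGATAAG lay at 0 of 11, against 1.27% and 0.582% of all IDR peaks. The daf-2 and daf-18 peaks held none of the 6 motifs. The differences between the 11 peaks and the whole list were not tested.

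Other genes of these pathways were looked at with 62 genes of insulin, AMPK, TOR, autophagy and starvation responses. These 62 were chosen with earlier results of these data known, so their counts are no independent check. Of the 62 genes 20 had an IDR summit in their window (32.3%, against 15.9% of all genes). At 14 of them a peak was strong in both replicates, as was the case for 10.1% of all genes. The 62 genes had a median length of 3648 bp, longer than the 2027 bp of all genes. Of the 10 among them of 10000 bp or more 7 had a summit, against 28.3% of all genes of that length. Of the 52 shorter ones 13 had a summit, against 15.3% of all shorter genes.

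Over all genes, 15.9% had an IDR summit and 10.1% a peak strong in both replicates. In the insulin branch 5 of 11 genes had an IDR summit, all 5 with a peak strong in both replicates. They were pdk-1, the kinase that activates AKT (intron, rank 658), pptr-1, a regulatory subunit of the phosphatase that acts on AKT-1 (rank 764), the 14-3-3 protein genes ftt-2 and par-5, whose products bind DAF-16, and smk-1, a cofactor of DAF-16 (rank 426, but nearest to the start of vps-60). The 14-3-3 gene ftt-2 had its peak 462 bp upstream (chrX:11605706-11606055, signal 193, rank 377), with ranks of 582 in replicate 1 and 268 in replicate 2. That of par-5 lay upstream too, at rank 1136.

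Of 11 AMPK genes 3 had a summit (27.3%, against 15.9% of all genes). The 3 were the gamma subunit genes aakg-1 (3 summits, best rank 1303) and aakg-4 (rank 761) and the folliculin gene flcn-1 (rank 741, nearest to malt-1). The flcn-1 peak, with 66.3% G or C, ranked 485 in replicate 1 and 2658 in replicate 2. Of 10 TOR genes 2 had a summit (20.0%, against 15.9% of all genes). The 2 were rict-1 (rictor, rank 978, nearest to gfm-1) and rheb-1 (an activator of TOR, rank 1620).

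Of 16 autophagy and lysosome genes 5 had an IDR summit (31.2%, against 15.9% of all genes), lgg-1, lgg-2, atg-7, atg-9 and mml-1. The strongest peak of all 62 genes was at lgg-2, a homologue of the autophagosome protein LC3, 271 bp upstream of its start (chrIV:10936161-10936249, signal 299, rank 130), with rank 228 in replicate 1 and a stronger rank in replicate 2. Its paralogue lgg-1 had one at rank 504. The atg-7 peak (chrIV:11082953-11083302, signal 243, rank 219) lay 2073 bp upstream and nearer to the start of klc-1, 607 bp away, and ranked 213 in replicate 1 and 382 in replicate 2.

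Of 14 starvation and arrest genes 5 had a summit (35.7%, against 15.9% of all genes), skn-1, nhr-49, crh-1, daf-12 and daf-9. The steroid receptor gene daf-12, whose ligands the cytochrome gene daf-9 helps to make, had 4 summits, 3 of them strong in both replicates. The strongest was intronic, 14410 bp past the gene start (chrX:10650262-10650387, signal 291, rank 137), with ranks of 212 in replicate 1 and 118 in replicate 2. The daf-9 peak was intronic too, 1057 bp inside (rank 485). Among the 20 genes the strongest peak lay upstream in 14, in an intron in 5 and downstream in 1 (skn-1). For 5 (smk-1, flcn-1, rict-1, atg-7 and skn-1) it was nearer to the start of another gene.

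**Figure D5:**
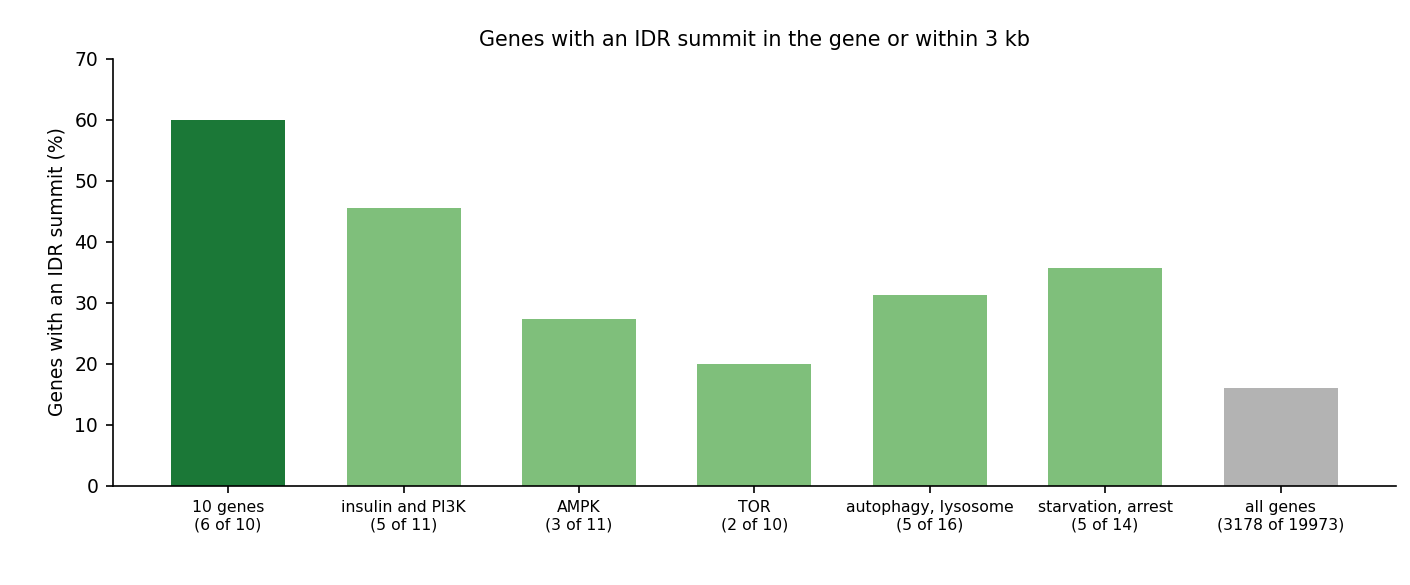
Share of genes with an IDR summit in the gene or within 3 kb, for the 10 genes (6 of 10), for 5 groups of other genes of the same pathways and for all protein-coding genes (3178 of 19973, 15.9%). The bars of the 5 groups, of 10 to 16 genes each, stand between 20.0% (TOR) and 45.5% (insulin). The bars are not corrected for gene length, and the genes were chosen with earlier results of these data known.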

How the data were processed

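The deposited peak lists of 2 replicates, of the pooled reads and of optimal IDR peaks were used. Per the file headers, each list was made against a control alignment on assembly ce11, and the IDR list was derived from the other 3. Peaks were ranked within each list by the signal that the authors deposited, left unscaled. No source used here gives the peak caller, the aligner or the IDR threshold. Per the labels, chromatin was sonicated to fragments of 200 to 800 bp. All 11 IDR peaks of the 10 genes were 350 bp wide with the summit at the midpoint.

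Gene models were those of Ensembl release 115 on WBcel235, the same assembly, with the most upstream annotated base of a gene as its start. A summit counted for every gene within 3000 bp. Sequence came from RefSeq. Python 3.11.15 with numpy 2.4.6 and pandas 2.3.3 was used, and the counting steps were tested on simulated data with planted summits and motifs. No test was run, since there is 1 group. All 10 genes are named, with every IDR peak, and of the 62 pathway genes those with an IDR peak, the 4 strongest in full. The members, lists and motifs were chosen with earlier results of these data known, and the split at 10000 bp and the limit of 60% G or C after the values were seen. Alternatives were other windows, the 945 strongest IDR peaks, single replicates and other definitions of a shared site.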

Additional observations from a re-analysis of the deposited data

How the results depend on the processing

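The count of genes with an IDR peak (6) was 3 with only the 945 strongest IDR peaks (aak-2, akt-1 and daf-16), where 9.06% of all genes had one. It was 5 at 1000 bp (9.90% of all genes), 4 in the gene body (2.87%) and 6 at 5000 bp (21.2%). By nearest start it was 5 (7.54%), and with any overlap 6 (16.4%). Leaving out a replicate meant counting the 1891 strongest peaks of the other replicate in place of the IDR list. That gave 5 genes without replicate 1 (15.4%) and 6 without replicate 2 (15.6%). The contrast with all genes thus varied more than the count. The number of IDR peaks (11) was 7 in the gene body alone and 3 among the 945 strongest, and 9 to 11 otherwise. The count of genes with a peak in both replicates (4) was 2 in the gene body alone, where the akt-1 peak and the upstream hlh-30 peak drop out, and 3 to 5 otherwise. The count of other pathway genes (20) was 6 in the gene body alone and 12 with the 945 strongest, and 16 to 21 otherwise. Fewer peaks or a smaller window are part of how these alternatives are built. With 100 bp to each side of the summit, TGTTTAC lay at 1 of the 11 peaks (2.86% of all IDR peaks). TAATTA stayed at 3, TAATTG at 2, CACGTG at 2 and GAGAGA at 3 peaks, while their shares of all IDR peaks were larger, at 12.8%, 19.9%, 6.82% and 33.2%, so 2 of 11 for TAATTG and 3 of 11 for GAGAGA were close to or below the list. TGATAAG lay at 0 (1.43%). Leaving out replicate 1 loses daf-18, and leaving out replicate 2 loses daf-2 and adds akt-2. No paired analysis was possible because both samples belong to 1 group. Read depth is unknown, and no count of reads or interval could be given.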

Other observations

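Of the 42 other pathway genes without an IDR summit, 3 had a pooled peak just below the IDR list, with ranks of 1961 (unc-51, the kinase that starts autophagy), 1977 (ragc-1, a GTPase of the TOR pathway) and 2048 (ist-1, an insulin receptor substrate). At the other end, 2 of the 62 genes had no pooled peak of any rank in their window, where 88.4% of all genes had one. They were sod-3, a superoxide dismutase gene known as a target of DAF-16, and vps-34, which encodes the lipid kinase of autophagy. The gene par-4, which encodes the kinase that activates AMPK, had its best pooled peak at rank 29812, close to that of aak-1 at 29901.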
